A study of Mus musculus with 8 samples.

Results

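The genes described here encode the conjugation enzymes of the liver, namely the glutathione S-transferases (GST), the UDP-glucuronosyltransferases (UGT) and the sulfotransferases (SULT). They were taken by symbol, as every gene whose array annotation begins with Gsta, Gstm, Gstt, Gstp, Gstk, Gstz, Gsto, Mgst, Ugt1, Ugt2, Ugt3 or Sult. Of 65 such genes among the annotated probe sets, 48 had a probe set that names that gene alone and could be tested with the 19934 genes of the whole array. These were 22 GST, 10 UGT and 16 SULT genes. The other 17, with 3 GST, 10 UGT and 4 SULT genes, were read only by probe sets shared between close relatives, which are given apart.

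Conjugation is the step in which the hepatocyte couples a drug, hormone, bile pigment or reactive lipid product to a water-soluble group. GSTs use glutathione, UGTs mostly use UDP-glucuronic acid, and SULTs use the sulfate donor PAPS. The products leave the cell through ATP-driven exporters into bile or blood. In rodent liver many of these genes respond to the xenobiotic receptors CAR, PXR and AHR or to the stress factor NRF2, and several differ between males and females.

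Transcripts were measured in 8 liver samples of male C57Bl/6 mice aged 10 to 12 weeks, on normal chow with 12 h of light and 12 h of dark, collected at zeitgeber time 10. The 4 samples of the NS-DADm genotype came from mice in which NCOR and SMRT, 2 nuclear receptor corepressors, have a mutated DAD, the domain that binds and activates the deacetylase HDAC3. The other 4 were wild type (WT). The labels name no Cre, promoter or clone, and the growth label attached to all 8 samples speaks of WT males. The question was which liver transcripts differ when neither corepressor can activate HDAC3. Each sample was hybridised to 1 Affymetrix array that reads whole transcripts, and a level below is a deposited log2 intensity. The labels do not say that the samples came from separate animals, so each p-value reflects sample-to-sample spread that may be technical, and the number of arrays limits the precision. Levels of different probe sets are not compared with each other, except that some are placed above or below the median level of all genes as a rough mark of bright and dim.

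The 8 array medians lay between 7.39 and 7.50. All 8 hepatocyte markers examined, among them Alb, Ttr and Cps1, were above the median level of all genes (7.59). Their mean level per array ran from 13.56 to 13.58 in WT and from 13.51 to 13.55 in NS-DADm. Their log2 fold changes had a median of 0.00, with 4 of 8 above 0 and none past the test. The largest was that of Tat, -0.20, with every NS-DADm array below every WT array. All 6 sinusoidal endothelial markers had a log2 fold change below 0 (NS-DADm minus WT, median -0.28, none past the test), and their mean level per array ran from 9.59 to 9.79 in WT and from 9.15 to 9.77 in NS-DADm. All 4 neutrophil markers were above 0 (median 0.18, none past the test), with a mean level of 6.24 to 6.43 in WT and 6.39 to 6.55 in NS-DADm arrays, under the median level of all genes. The 6 cholangiocyte markers had a median of -0.01. The 6 Kupffer cell or macrophage markers had a median of 0.08 (none past the test). Their mean level per array ran from 8.56 to 9.12 in WT and from 8.43 to 9.49 in NS-DADm. All 6 were highest in replicate 4 within NS-DADm. Within WT, Cd5l, Vsig4, Adgre1 and Timd4 were highest in replicate 4, and Clec4f and Marco in replicate 1. The part of other cell types in the results was not tested, and in whole liver fewer cells of a type and less RNA per cell cannot be told apart.

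Among the 48 conjugation enzyme genes, 3 rose in NS-DADm livers and none fell. The 3 were the theta-class transferases Gstt3 and Gstt1 and the phenol sulfotransferase Sult1a1. The pi-class gene Gstp1 was lower and just missed the threshold, while both probe sets it shares with Gstp2 fell. The largest difference of all 48 was in Ugt2b37, at 2.49-fold higher on average, but its NS-DADm values were too spread out to pass. The test was limma's moderated test with p-values adjusted over all genes by the Benjamini-Hochberg method and a threshold of 0.05. In the background of all genes 54 passed, which is 0.271%, with 0.161% higher and 0.11% lower. At an unadjusted p under 0.05, 8 members were higher and 1 was lower, against 3.72% of all genes higher and 5.6% lower.

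**Figure D1:**
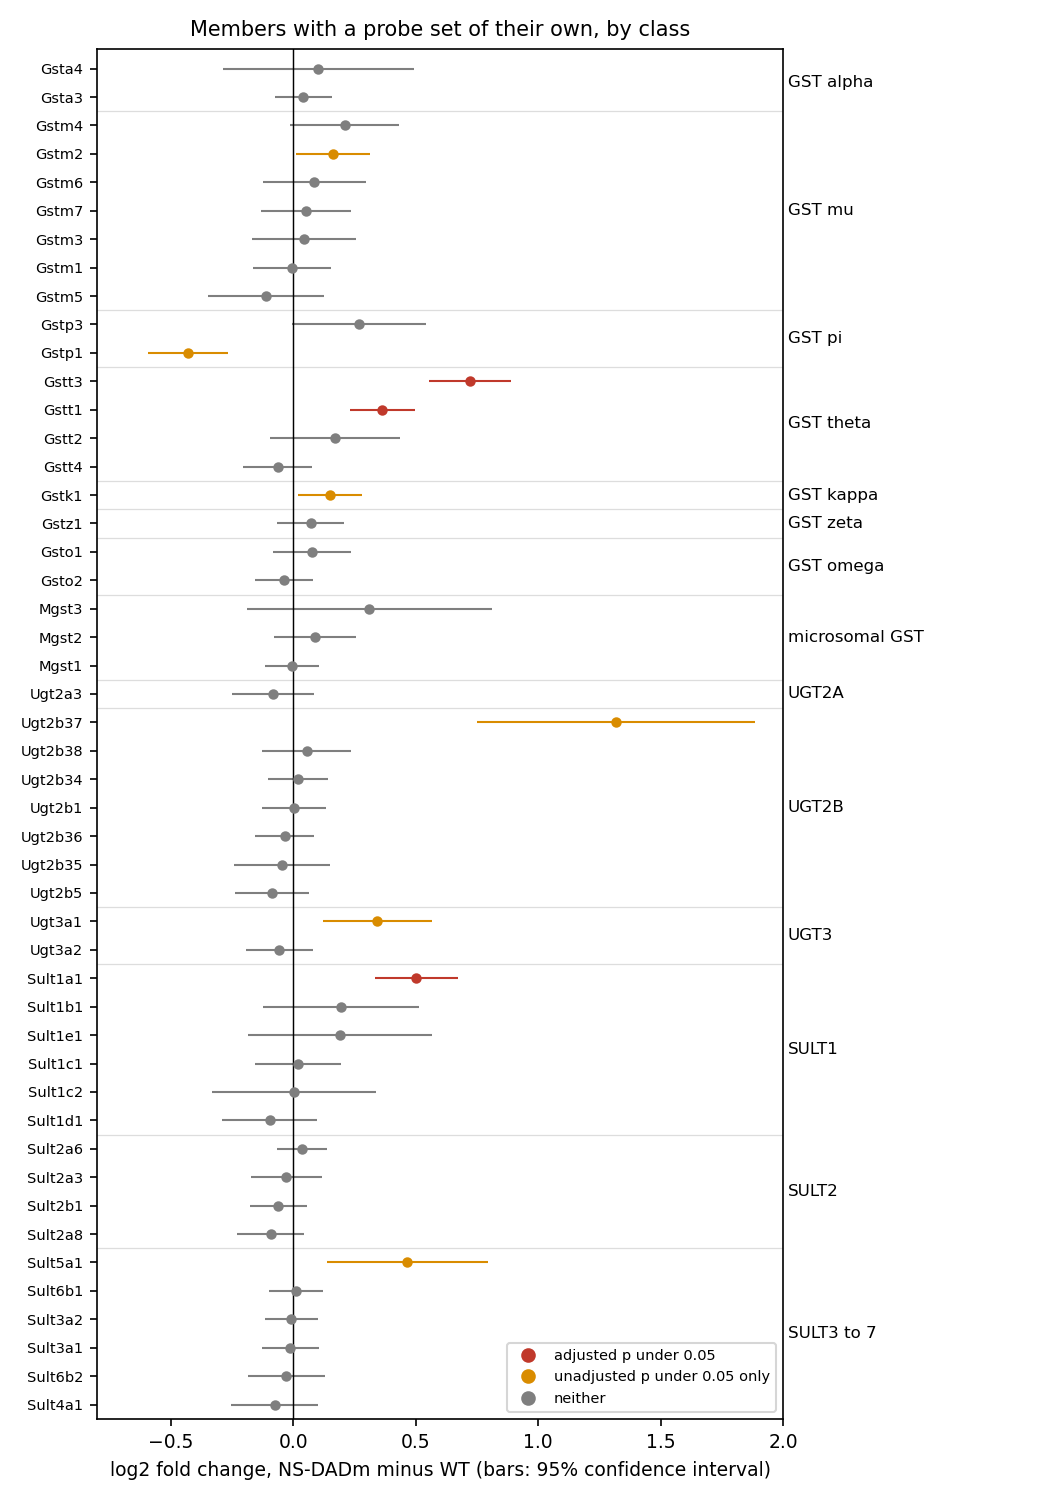
Log2 fold change (NS-DADm minus WT) of the 48 genes with a probe set of their own, by enzyme class, with 95% confidence intervals from the fit. Red points passed the adjusted test (Gstt3, Gstt1, Sult1a1), orange points had only an unadjusted p under 0.05, and most of the others lie close to 0.

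By family, 16 of 22 GST genes lay above 0 on the log2 scale (median difference 0.08). The 10 UGT genes divided into 5 above and 5 below 0 (median -0.02), and the 16 SULT genes into 8 and 8 (median 0.00). Over all genes 44.3% were above 0 and the median was -0.01. In 8 members, 16.7%, the 4 arrays of one group lay wholly above the 4 of the other, as they did in 5.63% of all genes. Among genes at or above the median level, they did so in 7 of 35 members (20%) and in 8.57% of all such genes. Of the 48 genes 13 lay below the median level of all genes, 10 of them SULT genes. In that range a transcript that is hardly made and one that does not change cannot be told apart.

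The theta class held the clearest result. Theta transferases act on small halogenated molecules and on hydroperoxides, and Gstt1 is the best known of them. Gstt3 (Entrez Gene 103140) was at 10.13, 10.34, 10.34 and 10.19 in NS-DADm replicates 1 to 4 and at 9.58, 9.66, 9.50 and 9.38 in WT replicates 1 to 4. Every NS-DADm array was above every WT array, by a margin wider than the range within either group. The WT mean was 9.53 ± 0.12 and the NS-DADm mean 10.25 ± 0.11 (SD, n = 4), so that the log2 fold change came to 0.72 (SE 0.076, 95% confidence interval 0.55 to 0.89) or 1.65-fold, with a limma adjusted p of 0.00364. It passed under all 18 alternatives tried, each array left out among them, with a limma adjusted p between 0.00202 and 0.0218.

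Gstt1 (Entrez Gene 14871) was at 12.24, 12.26, 12.22 and 12.18 in NS-DADm and at 11.72, 11.89, 11.95 and 11.87 in WT replicates. The groups did not overlap, and the NS-DADm values lay within a narrower range than the WT values. The log2 fold change was 0.36 (SE 0.060, 1.29-fold, limma adjusted p = 0.0413). That call needed nearly all arrays. It held without NS-DADm replicate 4 (adjusted p = 0.042) but not without WT replicate 1 (0.0733), 2 (0.142), 3 (0.0638) or 4 (0.0754), nor without NS-DADm replicate 1 (0.118), 2 (0.149) or 3 (0.126), and not after subtraction of array medians (0.0768), all by limma. The log2 fold change stayed between 0.32 and 0.40 throughout.

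The other theta genes did not pass. Gstt2 was at 9.32, 9.37, 9.82 and 9.80 in NS-DADm and at 9.48, 9.30, 9.29 and 9.54 in WT replicates. NS-DADm replicates 3 and 4 were above all WT arrays, while replicates 1 and 2 were within the WT range (log2 fold change 0.17, limma adjusted p = 0.766). Gstt4 was dim, with means of 6.22 in WT and 6.15 in NS-DADm livers (log2 fold change -0.06). In the RefSeq gene order of GRCm38.p6 these 4 genes lie side by side as Gstt3, Gstt1, Gstt4 and Gstt2, between Ddt and Mif. Ddt was at 0.04 (adjusted p = 0.946) and Mif at -0.22 (adjusted p = 0.697), so within this stretch the adjacent pair Gstt3 and Gstt1 alone passed.

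**Figure D2:**
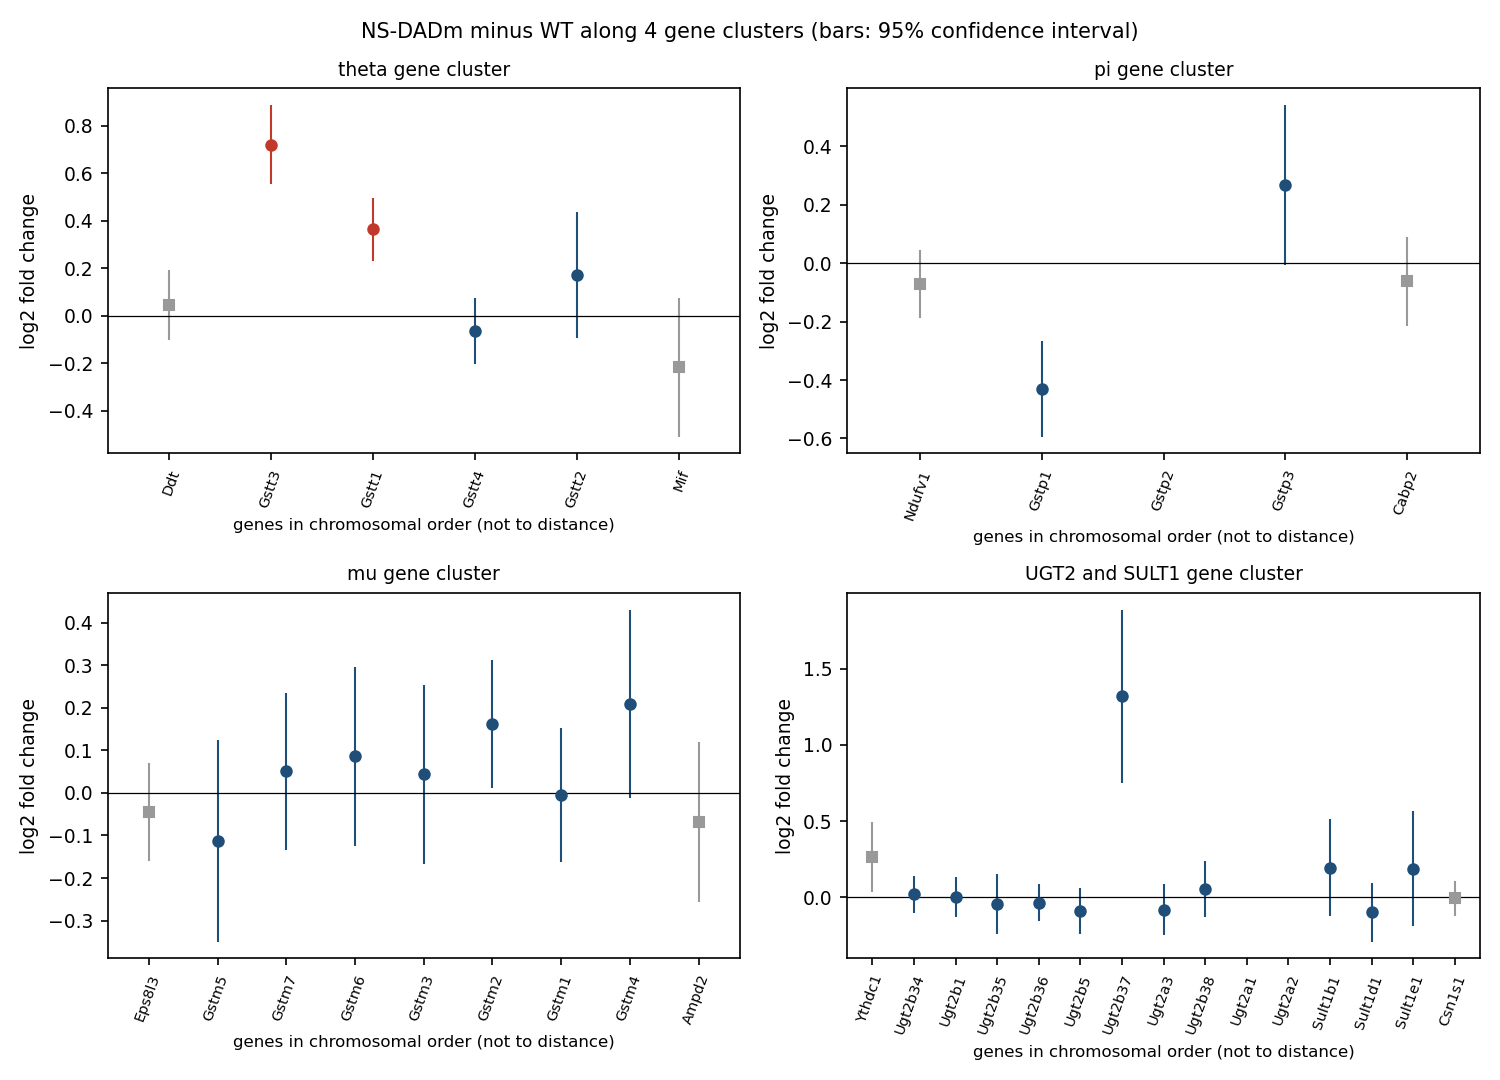
Log2 fold change (NS-DADm minus WT, 95% confidence intervals) of genes in chromosomal order along 4 clusters of conjugation genes, with the nearest flanking genes as grey squares and members as circles, red where they passed. In the theta cluster Gstt3 and Gstt1 stand above 0, in the UGT2 and SULT1 cluster Ugt2b37 stands at 1.32 among neighbours near 0, and genes with no probe set of their own (Gstp2, Ugt2a1, Ugt2a2) are blank.

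The pi class is the major hepatic GST class of male mice and also acts as a binding partner of stress kinases. Gstp1 (Entrez Gene 14870) was at 13.29, 13.20, 13.25 and 13.53 in NS-DADm and at 13.83, 13.70, 13.74 and 13.72 in WT replicates. All NS-DADm arrays were below all WT arrays, and NS-DADm replicate 4 was the nearest to them. The log2 fold change was -0.43 (SE 0.074, 1.35-fold lower) with a limma adjusted p of 0.0511, over the threshold. Without NS-DADm replicate 4 it was -0.50 (adjusted p = 0.00547), and with the other arrays left out in turn the adjusted p ran up to 0.17. It also passed among genes at or above the median level (0.0422) or the 25th percentile (0.0438), with trended and robust variances (0.0125) and with array weights (0.0159), all by limma.

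A pair of probe sets is shared by Gstp1 and Gstp2, its neighbour and close copy, and cannot divide the signal between them. They were tested in a limma fit over all 28270 probe sets, of which 51 (0.18%) passed. On the first, NS-DADm replicates were at 11.55, 11.45, 11.56 and 12.08 and WT replicates at 12.61, 12.45, 12.48 and 12.50. On the second they were at 11.66, 11.56, 11.65 and 12.19 and at 12.69, 12.52, 12.56 and 12.57. On both, 3 NS-DADm arrays lay together far below WT and replicate 4 lay between. The log2 fold changes were -0.85 (SE 0.12, 1.80-fold lower, adjusted p = 0.0279) and -0.82 (SE 0.12, 1.76-fold lower, adjusted p = 0.0339). Both kept an adjusted p of 0.000736 without NS-DADm replicate 4, with log2 fold changes of -0.99 and -0.96. Without any 1 of the other 7 arrays neither passed (limma adjusted p 0.0636 to 0.134 on the first, 0.0778 to 0.143 on the second). The 2 sets list the same transcripts, so they are not independent measurements.

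Gstp3, the next gene along, went the other way without passing. It was at 8.53, 8.77, 8.34 and 8.95 in NS-DADm and at 8.20, 8.57, 8.38 and 8.38 in WT replicates, with overlap between groups (log2 fold change 0.27, limma adjusted p = 0.548). The flanking genes Ndufv1 and Cabp2 were at -0.07 and -0.06.

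**Figure D3:**
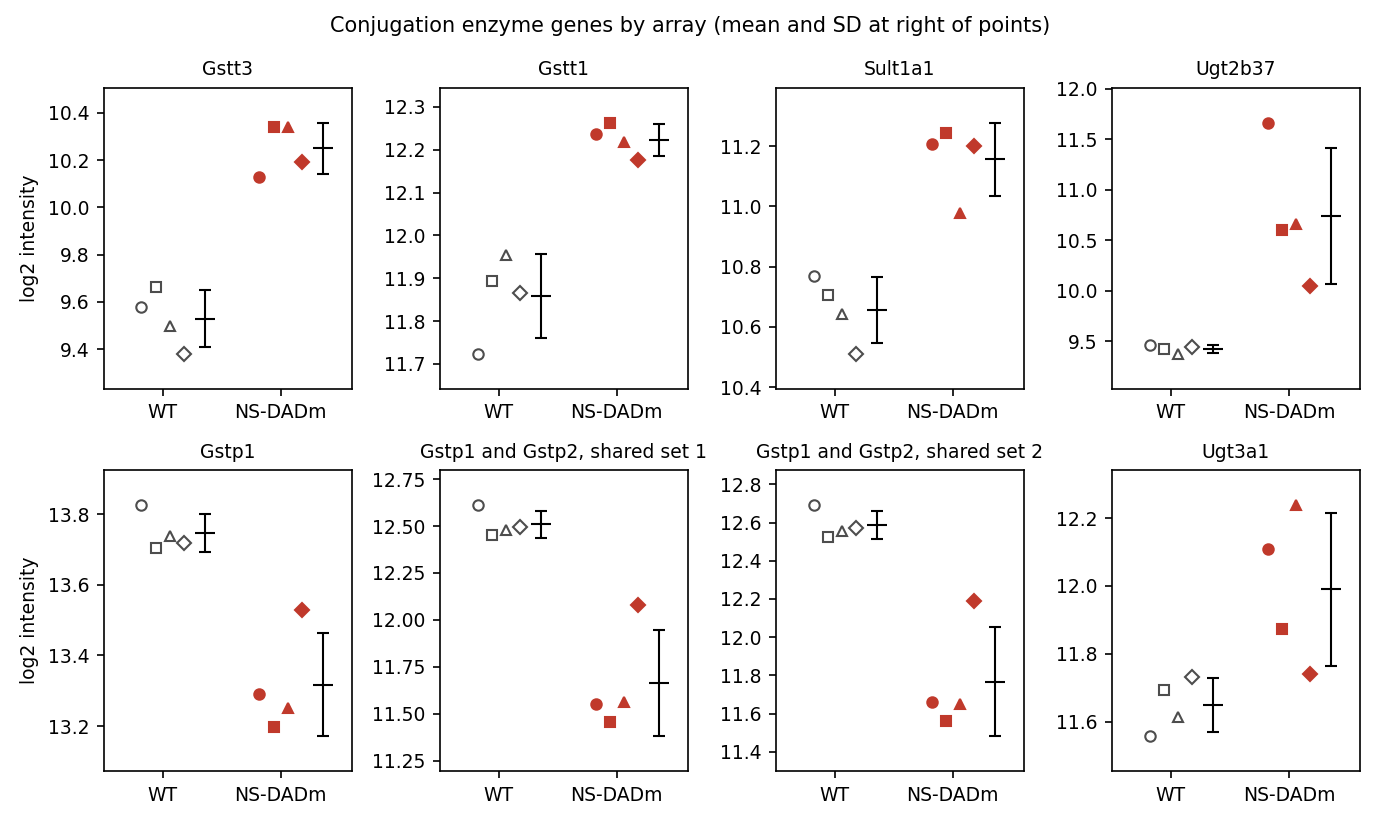
Log2 intensity on each array for the members that passed or came nearest and for the probe sets shared by Gstp1 and Gstp2, with circle, square, triangle and diamond for replicates 1 to 4 of each group and the mean and SD (n = 4) beside the points. The groups are apart in every panel, with NS-DADm replicate 4 nearest to WT for the pi class, Gstt1, Ugt2b37 and Ugt3a1. The vertical scales differ between panels and do not start at 0.

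The UGT2B enzymes glucuronidate steroids, bile acids and many drugs, and their genes form a tandem cluster. Ugt2b37 (Entrez Gene 112417) was at 11.66, 10.60, 10.66 and 10.05 in NS-DADm and at 9.46, 9.42, 9.37 and 9.44 in WT replicates. All NS-DADm arrays were above all WT arrays, but they spread over more than 1 log2 unit while the WT arrays nearly coincided, with SDs of 0.67 and 0.039. The log2 fold change was 1.32 (SE 0.26, 95% confidence interval 0.75 to 1.89), the 10th highest of 19934 genes when ranked from the largest increase down, and the limma adjusted p was 0.0826. With NS-DADm replicate 1 left out it passed at 1.01 (limma adjusted p = 0.0144), and with replicate 4 left out at 1.55 (0.014). With trended and robust variances the adjusted p was 0.22. A probe set of this family is open to signal from close relatives, and their part was not tested.

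The other UGT2 genes of that cluster stayed near 0. The other 6 UGT2B genes with probe sets of their own, Ugt2b34, Ugt2b1, Ugt2b35, Ugt2b36, Ugt2b5 and Ugt2b38, had log2 fold changes from -0.09 to 0.05. Ugt2b5 and Ugt2a3, the immediate neighbours of Ugt2b37, were at -0.09 and -0.08. The mean of Ugt2b5 was 12.62 ± 0.06 for WT and 12.54 ± 0.12 for NS-DADm (SD, n = 4). The probe set shared by Ugt2a1 and Ugt2a2 was dim, at 4.68 and 4.69. The sulfotransferase genes Sult1b1, Sult1d1 and Sult1e1, which follow in the same cluster, were at 0.19, -0.10 and 0.19, and none passed. The flanking genes Ythdc1 and Csn1s1 were at 0.27 (limma adjusted p = 0.442) and -0.01.

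UGT1 enzymes, which include the bilirubin-conjugating form Ugt1a1, are made from 1 locus by alternative first exons joined to common exons. A probe set shared by 8 of them averaged 12.05 ± 0.03 for WT and 12.10 ± 0.06 for NS-DADm (SD, n = 4). The difference was 0.05, with a 95% confidence interval of -0.06 to 0.16, so a change of the summed locus outside that interval was not seen. Shifts between its first exons could not be read. The UGT3 enzymes use other sugar donors than glucuronic acid. Ugt3a1 was at 12.11, 11.87, 12.24 and 11.74 in NS-DADm and at 11.56, 11.69, 11.61 and 11.73 in WT replicates. NS-DADm replicate 4 was barely above the highest WT array, and the log2 fold change of 0.34 did not pass (limma adjusted p = 0.281). Ugt3a2 was at -0.06, and the pair of probe sets shared by Ugt3a1 and Ugt3a2 at 0.07 and 0.08.

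Among the sulfotransferases, Sult1a1 (Entrez Gene 20887) sulfates phenols, catechols and simple aromatic drugs. It was at 11.21, 11.24, 10.98 and 11.20 in NS-DADm and at 10.77, 10.70, 10.64 and 10.51 in WT replicates. The groups did not overlap, and NS-DADm replicate 3 was the lowest of its group. The WT mean was 10.66 ± 0.11 and the NS-DADm mean 11.16 ± 0.12 (SD, n = 4), so that the log2 fold change came to 0.50 (SE 0.077, 1.42-fold, limma adjusted p = 0.0259). The call was lost when NS-DADm replicate 1 (adjusted p = 0.0849) or 2 (0.103) was left out, likewise WT replicate 2 (0.106), 3 (0.0903) or 4 (0.0503), and after quantile normalization (0.0617), all by limma, while its log2 fold change stayed between 0.45 and 0.56.

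No other SULT gene passed. Sult5a1 was at 9.47, 9.26, 9.76 and 9.77 in NS-DADm and at 9.06, 9.51, 8.95 and 8.88 in WT replicates. WT replicate 2 lay inside the NS-DADm range, and the log2 fold change of 0.47 had a limma adjusted p of 0.328. Sult2a8, the bile acid sulfotransferase of male mouse liver, averaged 12.52 ± 0.03 for WT and 12.42 ± 0.11 for NS-DADm (log2 fold change -0.09). Sult1d1, which sulfates catecholamines, was at -0.10. The estrogen sulfotransferase gene Sult1e1 was dim on 7 of 8 arrays, at 4.19 to 4.47, and at 5.17 in NS-DADm replicate 1. Sult2a1 and Sult3a1 are known as genes of female liver, and the probe sets of their subfamilies, Sult2a8 apart, were dim in both groups. Sult3a1, Sult3a2, Sult2a3 and Sult2a6 had means between 3.88 and 4.53, and the pair of probe sets shared among Sult2a1, Sult2a2, Sult2a4 and Sult2a5 had means between 4.01 and 4.62.

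The alpha class, which conjugates the lipid peroxidation product 4-hydroxynonenal and binds bilirubin, did not separate the groups. A set of 4 probe sets shared by Gsta1, Gsta2, Gm10639 and Gm3776 gave log2 fold changes of 0.40 to 0.43, with 95% confidence intervals that all spanned 0 (-0.36 to 1.16 on the first). On the first the log2 fold change came to 0.099 with NS-DADm replicate 4 left out, and was 0.65 and 0.61 with replicate 2 of NS-DADm or replicate 4 of WT left out, and it did not pass in any of these. On that first set NS-DADm replicates were at 10.55, 10.32, 11.39 and 11.97 and WT replicates at 10.54, 10.29, 10.51 and 11.28. The spread was within the groups, with WT replicate 4 and NS-DADm replicates 3 and 4 high and the other 5 arrays between 10.29 and 10.55. Gsta4 was at 10.62, 10.71, 11.03 and 11.41 in NS-DADm and at 10.81, 10.65, 10.67 and 11.25 in WT replicates, again highest in replicate 4 of each group (log2 fold change 0.10, and -0.05 without NS-DADm replicate 4). Gsta3 averaged 13.06 ± 0.02 for WT and 13.10 ± 0.07 for NS-DADm (SD, n = 4).

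The 7 mu-class genes, which lie in 1 cluster, had log2 fold changes from -0.11 (Gstm5) to 0.21 (Gstm4), and none passed. Gstm4 was at 12.04, 11.97, 12.22 and 12.25 in NS-DADm and at 11.65, 11.86, 12.05 and 12.08 in WT replicates (limma adjusted p = 0.571), with overlap. Gstm2 was at 10.52, 10.47, 10.58 and 10.65 against 10.26, 10.36, 10.52 and 10.43, also with overlap (log2 fold change 0.16, limma adjusted p = 0.485). Gstm1 averaged 13.30 ± 0.06 for WT and 13.30 ± 0.13 for NS-DADm, and the difference was -0.01 (95% confidence interval -0.16 to 0.15).

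Of the remaining classes, the mitochondrial and peroxisomal Gstk1 was at 12.83, 12.79, 12.94 and 12.81 in NS-DADm and at 12.62, 12.76, 12.63 and 12.75 in WT replicates. The groups were apart by a narrow margin, and the log2 fold change of 0.15 did not pass (limma adjusted p = 0.448). Gstz1, which isomerises maleylacetoacetate in tyrosine breakdown, was at 0.07, and Gsto1, a thiol transferase that reduces dehydroascorbate, at 0.08. The microsomal gene Mgst1 averaged 13.48 ± 0.03 for WT and 13.47 ± 0.05 for NS-DADm. Mgst3 was at 8.33, 8.61, 8.69 and 9.64 in NS-DADm and at 8.44, 8.32, 8.57 and 8.70 in WT replicates. NS-DADm replicate 4 alone lay far above the rest, and the log2 fold change of 0.31 had a limma adjusted p of 0.784. For Mgst3 it was 0.038 without that array and 0.47 without NS-DADm replicate 1.

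**Figure D4:**
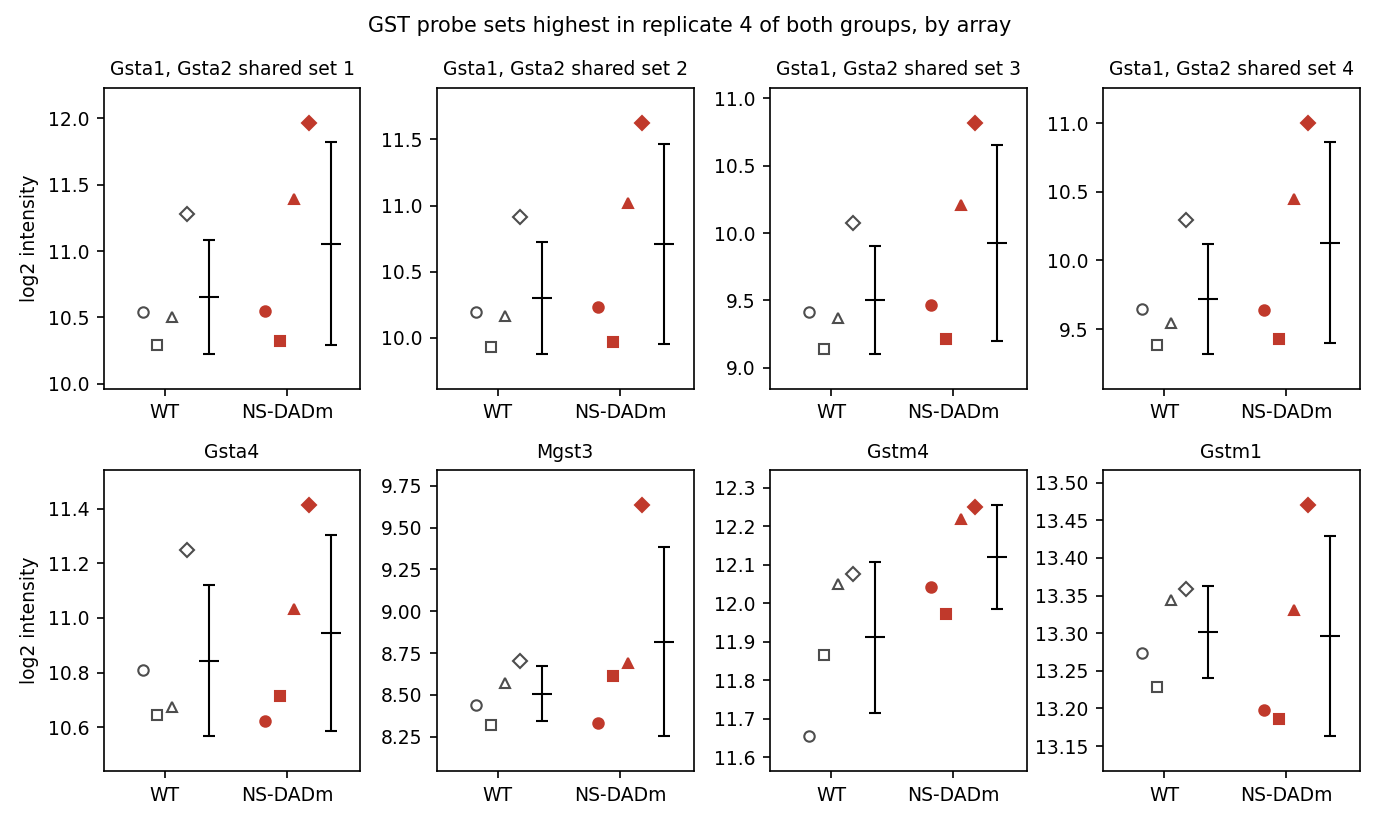
Log2 intensity on each array for the 4 probe sets shared by Gsta1 and Gsta2 and for 4 of the 6 GST genes that were highest in replicate 4 of both groups, with circle, square, triangle and diamond for replicates 1 to 4 and the mean and SD (n = 4) beside the points. The panels were picked for that order after the values were seen, the other 16 of 22 GST genes do not have it, and the groups overlap in each panel; the vertical scales differ between panels and do not start at 0.

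Promoters of Gstt3, Ugt2b37, Gstp1 and Gstp2 are shown as RefSeq gives them on GRCm38.p6, from 250 bases before to 50 after the annotated start. This was done because the probe sets cannot divide Gstp1 from Gstp2 and because Ugt2b37 stands apart from its neighbours. The windows of Gstt1 and Sult1a1, which also passed the test as Gstt3 did, held neither of the motifs capitalised below and are not printed. Capitals mark AGGTCA, the core motif of many nuclear receptors, or TGAGTCA, the AP-1 site, on either strand.
Gstt3 (chr10:75781373-75781672, minus strand): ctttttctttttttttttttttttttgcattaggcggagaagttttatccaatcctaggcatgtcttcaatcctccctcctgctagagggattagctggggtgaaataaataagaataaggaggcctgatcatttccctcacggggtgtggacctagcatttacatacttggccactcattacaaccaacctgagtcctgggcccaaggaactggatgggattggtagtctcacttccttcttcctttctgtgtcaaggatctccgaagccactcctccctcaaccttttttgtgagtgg
Ugt2b37 (chr5:87254739-87255038, minus strand): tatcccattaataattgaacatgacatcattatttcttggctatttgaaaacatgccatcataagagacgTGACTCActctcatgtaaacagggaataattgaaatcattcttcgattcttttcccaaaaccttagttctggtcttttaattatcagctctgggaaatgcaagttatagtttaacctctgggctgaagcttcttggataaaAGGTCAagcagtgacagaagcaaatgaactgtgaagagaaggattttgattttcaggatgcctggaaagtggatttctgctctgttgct
Gstp1 (chr19:4037863-4038162, minus strand): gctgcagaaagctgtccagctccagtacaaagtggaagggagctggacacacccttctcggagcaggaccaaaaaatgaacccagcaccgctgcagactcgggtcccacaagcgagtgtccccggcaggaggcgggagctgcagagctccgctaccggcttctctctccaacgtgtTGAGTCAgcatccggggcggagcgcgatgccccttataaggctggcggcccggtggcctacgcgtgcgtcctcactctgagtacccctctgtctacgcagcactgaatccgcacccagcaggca
Gstp2 (chr19:4042172-4042471, minus strand): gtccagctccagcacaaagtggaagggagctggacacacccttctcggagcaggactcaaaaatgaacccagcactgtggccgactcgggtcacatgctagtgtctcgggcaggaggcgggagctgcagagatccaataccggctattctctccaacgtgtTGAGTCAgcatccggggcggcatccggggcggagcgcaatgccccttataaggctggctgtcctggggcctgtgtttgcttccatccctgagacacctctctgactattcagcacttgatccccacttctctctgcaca

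The Gstp1 and Gstp2 windows were identical at 242 of 316 aligned positions (76.6%), and each held 1 TGAGTCA, beginning at position -74 in Gstp1 and -89 in Gstp2, where 0 is the first transcribed base. The Ugt2b37 window held 1 AGGTCA, beginning at -39, and 1 TGAGTCA, and the Gstt3 window held neither. AGGTCA was also in the windows of cluster genes with log2 fold changes near 0. It began at -22 in Ugt2b5, at -25 in Ugt2b36 and Ugt2b38, and at -215 in Ugt2b35. TGAGTCA began at -180 in Ugt2b37 and was not found in the windows of those genes. Whether either motif bears on the Ugt2b37 difference was not tested. Promoter entries were found for 44 of the 48 genes and, with the genes read only by shared probe sets, for 58 of 65, giving 70 windows. AGGTCA occurred in 12 of these 70 (17.1%), against 16.3% of all 32851 windows. TGAGTCA, a motif added after the sequences were seen, occurred in 9 (12.9%), against 5.2%. NRF2 acts through the antioxidant response element, and TGACNNNGC was the only form of its core searched. That form occurred in 4 (5.71%, in Gsta3, Gstm5, Gstm7 and Mgst1), against 12.4%. Windows without that form, those of Gstp1 and Gstp2 among them, are therefore not shown to lack the element. CACGTG, the E-box, was in none of the 70 and in 7.15% of all windows. A repeat of AGGTCA after a gap of 1 base (DR1) or 4 bases (DR4) was in none of the 70 and in 0.0396% and 0.0152% of all windows. The letters of TGAGTCA and of TGACNNNGC can overlap. These matches describe letters in a short window and are not binding sites.

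The pathway around these enzymes was followed in 7 lists with 113 genes, of which 106 were measured. Of the 106 genes 1 rose, As3mt, and none fell, against 0.271% of all genes called. At an unadjusted p under 0.05, 18 were higher and 10 lower, against 3.72% and 5.6% of all genes, and the median log2 fold change was 0.02. As3mt methylates arsenic and belongs to the 12 measured other conjugation enzymes. It was at 10.50, 10.53, 10.36 and 10.34 in NS-DADm and at 9.84, 9.98, 9.88 and 10.07 in WT replicates, without overlap (log2 fold change 0.49, 1.41-fold, limma adjusted p = 0.0177). The call was lost with WT replicate 1 (0.0546), 2 (0.0867) or 3 (0.0775) left out, with replicate 1 (0.0576) or 2 (0.0708) of NS-DADm left out, and after median subtraction (0.0525), all limma adjusted p. In the same list, whose median was 0.16, the histamine methyltransferase gene Hnmt was at 0.50 (adjusted p = 0.145), Nnmt at 0.27, Nat1 at 0.26 and the cysteine-conjugate acetyltransferase gene Nat8 at 0.25.

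Cofactor supply showed no called gene. Of 15 genes of glutathione synthesis and recycling (median 0.01), Ggct was at 0.24, the glutathione synthetase gene Gss at 0.21 and Ggt6 at 0.20, with limma adjusted p from 0.341 to 0.46. The 10 genes of UDP-glucuronic acid supply and glucuronide removal had a median of -0.07 and none at an unadjusted p under 0.05. Gusb, which encodes beta-glucuronidase, had the largest value, -0.16. Of 17 genes of PAPS and sulfate supply (median 0.05), 5 were higher at an unadjusted p under 0.05, against 3.72% of all genes. They were the sulfatase gene Arsa (0.31), the transsulfuration genes Cbs (0.24) and Cth (0.23), the sulfite oxidase gene Suox (0.16) and the PAPS synthase gene Papss2 (0.14), with limma adjusted p from 0.313 to 0.491.

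No exporter or uptake carrier passed the adjusted test. Of 16 measured, 6 had an unadjusted p under 0.05, all of them with lower means in NS-DADm, against 5.6% of all genes lower and 3.72% higher. The list median was -0.07. The breast cancer resistance protein gene Abcg2 was at -0.29, the uptake carrier gene Slco1a1 at -0.29, Abcc6 at -0.25, Abcb1b at -0.20, Abcc10 at -0.18 and Abcc2, the main canalicular exporter of glutathione and glucuronide conjugates, at -0.11 (limma adjusted p from 0.252 to 0.531).

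Among 19 receptors and factors (median 0.00), Ppara was at -0.22, the CAR gene Nr1i3 at -0.21 and Mafg at -0.19, while Arnt and the NRF2 gene Nfe2l2 were at 0.22 (limma adjusted p from 0.238 to 0.497). The 17 marker targets of NRF2, CAR, PXR and AHR had a median of 0.06. The NRF2 target Nqo1 was at 7.91, 7.80, 7.86 and 8.13 in NS-DADm and at 7.41, 7.44, 7.46 and 7.62 in WT replicates. The groups did not overlap, and the log2 fold change of 0.44 had a limma adjusted p of 0.0591, just over the threshold. Of the 8 arrays left out in turn, it passed without NS-DADm replicate 4 (limma adjusted p = 0.046) or WT replicate 4 (0.0452). Nqo1 also passed in 5 of the 10 alternatives that kept all arrays, where the limma adjusted p ran from 0.0225 to 0.122. Srxn1, also an NRF2 target, was at 0.32 (adjusted p = 0.43), the AHR targets Tiparp and Cyp1a1 at 0.36 (0.485) and -0.28 (0.127).

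**Figure D5:**
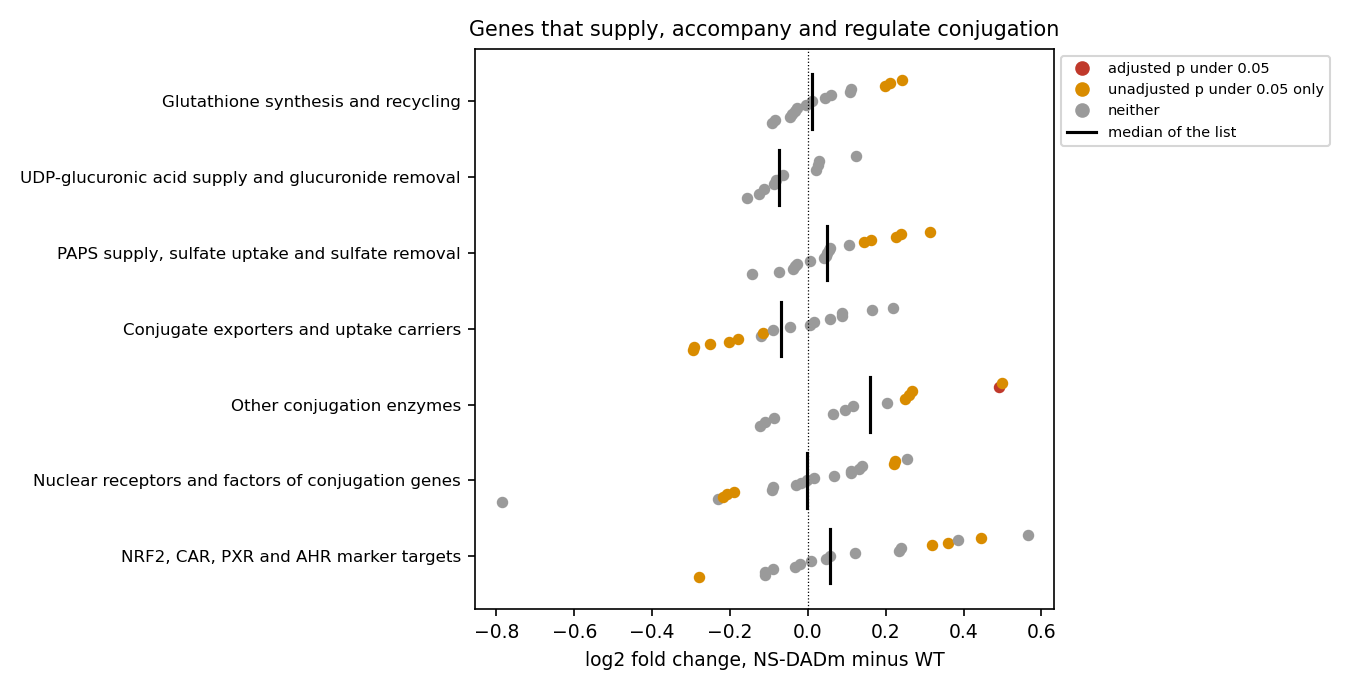
Log2 fold change (NS-DADm minus WT) of the 106 measured genes in 7 lists, each point a gene and each black line the median of its list. As3mt is the single red point (adjusted p under 0.05), and the 6 orange points of the exporter list all lie below 0.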

How the data were processed

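The authors deposited 1 table of log2 values for 28270 probe sets on 8 arrays, running from 3.43 to 14.37, and that scale was read from the values. RMA and Partek are the tools per the submitters' processing notes, with order, versions and settings not given in the sources used here. RMA corrects background, normalizes arrays and summarises probes, which compresses small differences at low intensity. Groups and replicate numbers came from the titles. Probe sets were named from the platform annotation, with symbols updated by Entrez Gene identifier. Of the 28270, 21780 named 1 gene, 1617 several and 4873 none. Each gene was read by its probe set with the highest mean among those naming it alone, which gave 19934 genes. Of the members, 1 (Gstm3) had more than 1 such set. The groups were tested by limma 3.58.1 under R 4.3.3 (lmFit, eBayes, two-sided, Benjamini-Hochberg over all genes, threshold 0.05), and the steps were tested on simulated data. Shared probe sets were tested in a fit over all probe sets. Folds were computed back from log2 differences.

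The members, lists and tests were chosen with earlier results of these data known. Named were members past the adjusted test or at an unadjusted p under 0.05, the largest absolute change of each class, shared probe sets, and list genes at an unadjusted p under 0.05 or, failing that, the largest change. Other members are named to account for their class, and Sult1e1 and Gstt2 after their values were seen. Protein sequences were not used here. List genes without a probe set of their own (7) were not analysed here. Alternatives were the mean of probe sets, every single-gene probe set, filters at the median and 25th percentile, quantile normalization, median subtraction, trended and robust variances, array weights, a replicate block, a threshold of 0.1, each array left out and, added after seeing the data, the array SD as a covariate and the fit over all probe sets. Tables and figures used Python 3.11.15, pandas 2.3.3 and matplotlib 3.10.9.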

Additional observations from a re-analysis of the deposited data

Results flagged for a closer look

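A sample stood apart from the other 3 of its group in 6 of 114 groups examined over the named genes and shared probe sets by a gap that took most of the range of the 4 (Dixon's test at the 95% level). Chance gives about 1 in 20. Both probe sets shared by Gstp1 and Gstp2 had NS-DADm replicate 4 high, at 12.08 against 11.45 to 11.56 and at 12.19 against 11.56 to 11.66. Sult1a1 had NS-DADm replicate 3 low, at 10.98 against 11.20 to 11.24. Among list genes, Tiparp had NS-DADm replicate 1 high, at 8.743 against 8.015 to 8.052. Ggt6 had NS-DADm replicate 1 low, at 8.327 against 8.554 to 8.571, and Abcb1b had WT replicate 3 low, at 6.435 against 6.568 to 6.593.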

How the results depend on the processing

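Of the 48 members 3 passed, and between 1 and 5 when an array was left out. Gstt3 was the 1 member called without NS-DADm replicate 2 or WT replicate 2, 3 or 4, and without NS-DADm replicate 4 Gstp1 and Ugt2b37 joined the 3. Array weights and a threshold of 0.1 gave 5 each. Over all genes 54 passed, with 13 to 126 when an array was left out (the lowest with WT replicate 2 left out, the highest with NS-DADm replicate 4 left out, and 22, 31 and 35 with WT replicate 3, NS-DADm replicate 2 and NS-DADm replicate 3 left out), 109 with array weights and 109 at a threshold of 0.1. Of list genes 1 passed by limma, with 0 to 2 when an array was left out (22 to 31 at an unadjusted p under 0.05). It was 0 after median subtraction (26 at an unadjusted p under 0.05), 2 among genes at or above the median level, 2 with trended and robust variances, 2 at a threshold of 0.1, 3 with array weights and 3 with the array SD as a covariate. Same-numbered samples deviated together at r = 0.146, 0.048, -0.102 and 0.247, and 3 of 8 samples correlated best with their own number. With so few samples these values cannot settle whether the numbers pair the samples, and the labels do not say. With the replicate block 105 genes, 3 members (Gstt3, Sult1a1 and Ugt2b37) and 3 list genes passed, while Gstt1 (limma adjusted p = 0.0589) and the second probe set shared by Gstp1 and Gstp2 (0.0517) did not. Leaving out an array turned the sign of Gsta4 (-0.055 to 0.24), of the probe set shared by Ugt2a1 and Ugt2a2 (-0.0088 to 0.05) and of 1 shared by 4 Sult2a genes (-0.016 to 0.072), none past the test. Quantile normalization and median subtraction moved the median of all genes by under 0.01. Signal over background was not given, so dim SULT genes have no detection limit here.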

Other observations

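NS-DADm replicate 1 stood highest of the 8 arrays for several genes of different families, which were picked after their values were seen. It had the highest Ugt2b37 (11.66), Sult1e1 (5.17), Srxn1 (10.02) and Tiparp (8.74), and the lowest Nr0b2, the SHP gene of bile acid feedback, at 8.12 against 8.90, 9.62 and 9.84 in the other NS-DADm replicates and 8.98, 10.36, 10.18 and 10.10 in WT.

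Within groups, replicate 4 was the highest array of both groups in 6 of 22 GST genes (Gsta4, Gstm1, Gstm4, Gstm5, Gsto1 and Mgst3), in none of 10 UGT genes and in 1 of 16 SULT genes (Sult1c2), against 9.2% of all genes. Whether the numbers pair these arrays is not known, and this count was made after the values were seen. The CAR target Cyp2b10 had another order. It was at 10.74, 10.47, 11.41 and 11.01 in NS-DADm and at 10.01, 9.87, 11.20 and 10.30 in WT replicates, highest in replicate 3 of each group (log2 fold change 0.56, limma adjusted p = 0.576).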
